A study of Rattus norvegicus with 6 samples.

Results

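The Ensembl annotated long non-coding RNAs (lncRNAs) that were well measured in the rat lens capsule were described in selenite cataract. They were chosen by 2 properties of the lncRNA count table, an identifier of the Ensembl annotation and a raw count of at least 50 in each of the 6 samples. Of the 12339 rows of the table, 3475 carried an Ensembl identifier, and 90 of those passed the count minimum. The remaining 8864 rows were loci assembled from the reads (XLOC identifiers). Because the minimum applies to both groups, an annotated lncRNA that was near 0 in one group could not be among the 90, so the size of the changes below is limited by the choice itself.

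Samples came from Sprague Dawley rat pups that were 8 days old when the model was set up. The Na2SeO3 group (3 rats) had sodium selenite under the skin of the neck at 20 µmol/kg on days 3, 5 and 7, the control group (3 rats) had saline in its place, and lenses were taken on day 15 of the experiment. No genetic change was described for either group, and the labels gave no sex or litter. Identifiers were not paired with gene symbols, so the labelled tissue could not be checked against markers and the lncRNAs are given by identifier, without name, position or known role.

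Long non-coding RNAs are transcripts that are not translated into a known protein. Some stay in the nucleus and act as scaffolds in nuclear bodies or on chromatin, some carry small RNAs in their introns, and for many no function is known. The lens capsule is the membrane around the lens, and its attached epithelial cells divide and differentiate into the fibre cells that fill the lens. Selenite given to young rats before the lens has matured clouds the lens, with oxidative damage and calcium entry as known features of the model.

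Column totals of the lncRNA table were 1175787 to 1661046 counts for the control samples and 1820343 to 1935704 for the Na2SeO3 samples. In counts per 1000000 of these totals (CPM), 50 counts stood for 30.1 to 42.5 CPM in the control samples and 25.8 to 27.5 CPM in the Na2SeO3 samples. Replicates of a group were not copies of one library, since the chi-square statistic per lncRNA was 2.18 to 6.07 within groups, where counting noise alone gives about 1, and 18.8 to 29.2 across groups. Control replicate 3 stood apart from its group, at 6.07 and 5.77 against control replicates 1 and 2, which gave 2.36 against each other. Pairs of Na2SeO3 samples gave 2.18 to 3.26.

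Abundance among the 90 annotated lncRNAs was very uneven. Mean CPM over the 6 samples ran from 38.2 to 71737 with a median of 88.2. Of the 90, 50 lay at 100 CPM or less, 33 between 100 and 500 CPM, 3 between 500 and 1000 CPM, 1 between 1000 and 10000 CPM and 3 above 10000 CPM. These are counts without correction for transcript length, so their order is one of counts and not of molecules.

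The 3 most abundant, ENSRNOG00000062127, ENSRNOG00000062155 and ENSRNOG00000062158, held 90.9% to 92.2% of the counts of the 90 in every sample. ENSRNOG00000062127 alone took 7.27%, 7.35% and 7.46% of all lncRNA counts in control replicates 1, 2 and 3, and 6.87%, 7.06% and 7.02% in Na2SeO3 replicates 1, 2 and 3. All 3 Na2SeO3 samples thus lay below the control samples on this scale, by less than 1 percentage point. ENSRNOG00000062155 took 4.81%, 5.02% and 5.01% of the lncRNA counts in the control samples and 4.84%, 4.30% and 4.39% in the Na2SeO3 samples. ENSRNOG00000062158 took 2.92%, 2.61% and 2.62% in the control samples and 2.36%, 2.94% and 2.94% in the Na2SeO3 samples. For the last 2 the groups overlapped. Wilson 95% intervals of these single-sample shares were at most 0.0472 percentage points to either side, which covers counting error only.

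ENSRNOG00000062155 and ENSRNOG00000062158 were not in a fixed proportion. There were 1.64, 1.92 and 1.91 counts of ENSRNOG00000062155 per count of ENSRNOG00000062158 in control replicates 1, 2 and 3, and 2.05, 1.46 and 1.49 in Na2SeO3 replicates 1, 2 and 3. Na2SeO3 replicate 1 was therefore the highest of all 6 samples while its fellow replicates were the lowest. The group means were 1.83 ± 0.16 for control and 1.67 ± 0.33 for Na2SeO3 (SD, n = 3), and the groups overlapped. Their difference did not pass (2-sided exact permutation p = 0.4, adjusted 0.457 over the 8 sums and ratios compared).

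The summed counts of the 90 differed in opposite directions on 2 denominators. As a share of the lncRNA table they were 16.5%, 16.4% and 16.5% in the control samples and 15.3%, 15.5% and 15.6% in the Na2SeO3 samples, a difference of -0.999 percentage points between the group means. Per 1000000 mRNA counts of the same sample they were 15727, 16254 and 16976 in the control samples and 21216, 22268 and 22239 in the Na2SeO3 samples, a ratio of 1.34. The groups did not overlap on either scale, and each exact permutation test gave 0.1, the smallest p that 3 samples against 3 can give (adjusted 0.16). The 87 lncRNAs other than the most abundant 3 showed the same opposition. They summed to 1.44% ± 0.0635 of lncRNA counts for control rats and 1.22% ± 0.0098 for Na2SeO3 rats, and per 1000000 mRNA counts they summed to 1425 ± 9.61 and 1733 ± 33.9 (SD, n = 3). Counts of the whole lncRNA table were also higher against mRNA counts in the Na2SeO3 samples. Totals of the mRNA table were 11874219 to 16120616 in the control samples and 12744584 to 13635926 in the Na2SeO3 samples. Totals of the lncRNA table were 1175787 to 1661046 and 1820343 to 1935704. The higher counts per mRNA count were therefore not particular to the 90. In bulk tissue, fewer cells of a type and less RNA per cell cannot be told apart.

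**Figure D1:**
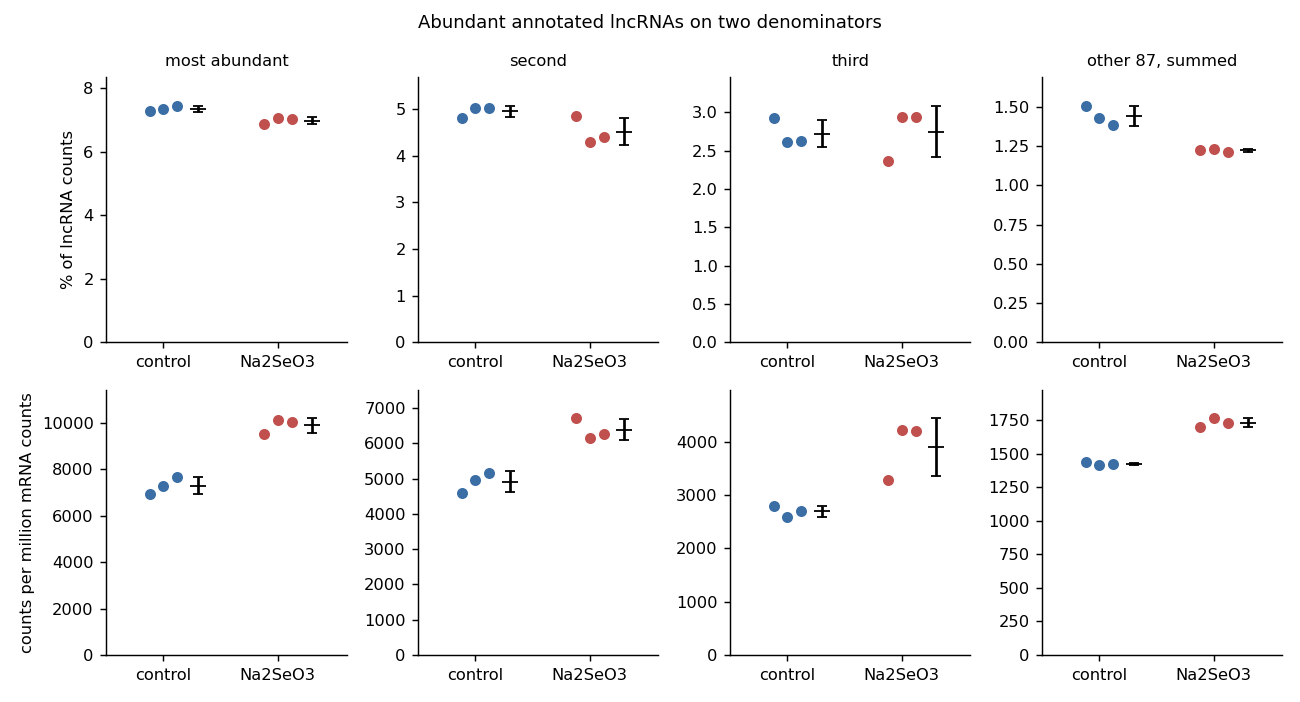
The most abundant annotated lncRNA (ENSRNOG00000062127), the second (ENSRNOG00000062155), the third (ENSRNOG00000062158) and the summed other 87, as a percentage of lncRNA counts (upper row) and as counts per 1000000 mRNA counts (lower row). Each point is a sample (replicates 1 to 3 from left to right, blue control, red Na2SeO3), bars are mean ± SD, and the sum of the 87 is lower in the Na2SeO3 samples in the upper row and higher in the lower row.

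Differences between the groups were then tested with edgeR's quasi-likelihood test on the whole lncRNA table, with TMM factors, which scale each library on the assumption that most lncRNAs do not change. A lncRNA was called at a Benjamini-Hochberg adjusted p under 0.05 and an absolute log2 fold change (log2FC, Na2SeO3 over control) above 1. Of the 90 annotated lncRNAs, 4 were called, all lower in the Na2SeO3 group, which is 4.44%. Over all 5057 lncRNAs tested, 14.2% were called, 9.16% lower and 5.06% higher. Of 2207 assembled loci with at least 50 counts in each sample, which carry the same limit as the 90, 6.39% were called. Of the 297 other annotated lncRNAs tested, which did not reach that minimum, 49 were called lower and 11 higher.

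Without the fold threshold, 43 of the 90 passed the adjusted p, 11 higher and 32 lower (23 and 10 with the scaling of the mRNA table), against 40.4% of all lncRNAs tested, with 20.2% in each direction. The 32 lower were 35.6% of the 90 and the 11 higher were 12.2%. Among the assembled loci with at least 50 counts in each sample, 31.1% passed as higher and 23.2% as lower. The 297 other annotated lncRNAs tested leaned the same way as the 90, with 5.05% higher and 20.2% lower. These shares are set side by side and their difference was not tested. The remaining 47 of the 90 did not pass.

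The median log2FC of the 90 was -0.23, with the middle 50% of values between -0.39 and 0.0038, and 67 of the 90 had a negative value, while with the scaling of the mRNA table the median was 0.076 and 38 values were negative. Over all lncRNAs tested the median was -0.023, and over the 297 other annotated lncRNAs tested it was -0.19. Of the 90, 21 (23.3%) had an absolute log2FC above 0.5 and 4 (4.44%) had one above 1, against 43.3% and 16.5% of all lncRNAs tested and 30.4% and 6.39% of the assembled loci with the same count minimum. By abundance, the median log2FC was -0.13 for ranks 1 to 30, -0.24 for ranks 31 to 60 and -0.27 for ranks 61 to 90, and with the mRNA scaling it was 0.17, 0.061 and 0.035. The minimum of 50 counts stood for 30.1 to 42.5 CPM in control samples and 25.8 to 27.5 CPM in Na2SeO3 samples. Near the minimum, rows lower in the Na2SeO3 group could thus enter the 90 more easily. The share of this in the order by abundance was not tested. For 56 of the 90 no Na2SeO3 sample lay within the CPM range of the control samples or the reverse, 47 of them lower and 9 higher in the Na2SeO3 samples, against 48.9% of all lncRNAs tested, 26.7% lower and 22.2% higher. Among the assembled loci with the same count minimum the share was 61.7%, against 62.2% of the 90, with 667 of those loci lower and 694 higher. These tallies rest on CPM from column totals, and with that scaling the median log2FC of the 90 was -0.28.

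**Figure D2:**
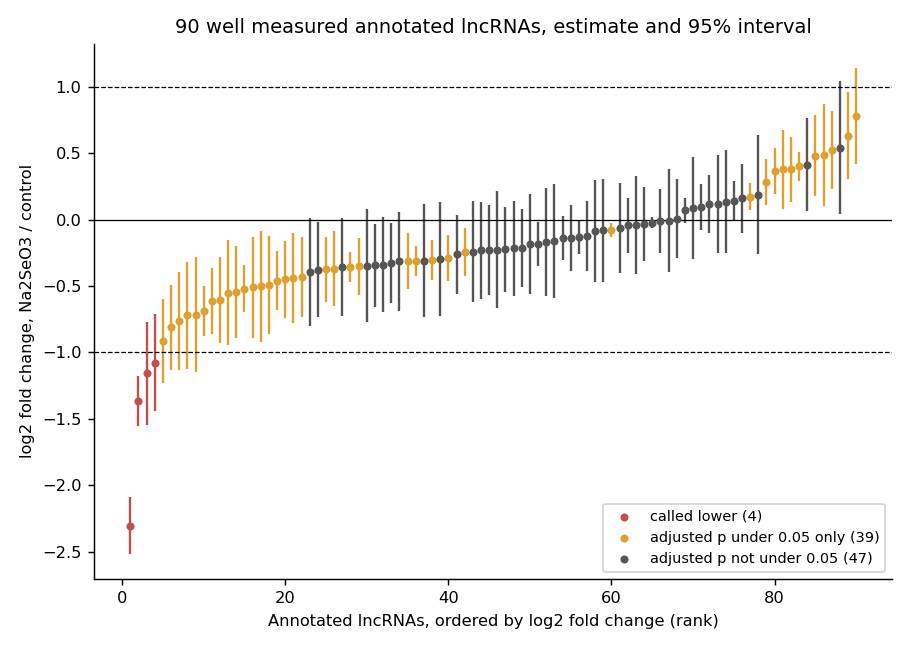
Log2 fold change of each of the 90 annotated lncRNAs with its 95% interval, ordered from the lowest to the highest, with dashed lines at -1 and 1. The 4 called lncRNAs stand at the low end, and no estimate reaches 1 at the high end.

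**Figure D3:**
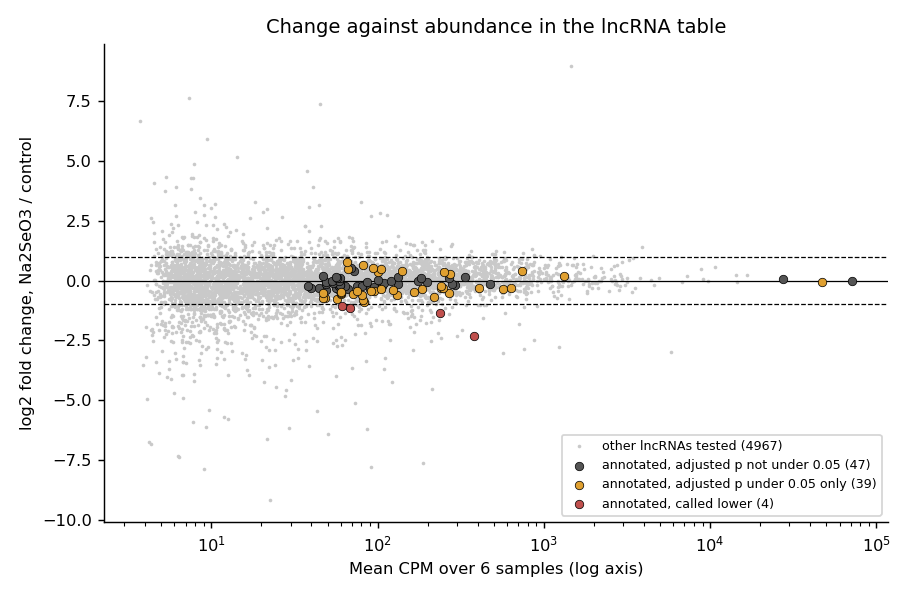
Log2 fold change against mean CPM over the 6 samples (log axis) for the 90 annotated lncRNAs (outlined points, coloured by test result) and the 4967 other lncRNAs tested (grey). The 3 most abundant annotated lncRNAs lie at the right edge near 0, and the widest changes of the table lie among the other lncRNAs.

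The largest fall was that of ENSRNOG00000062012, the tenth most abundant of the 90. It had 788, 578 and 548 CPM in control replicates 1, 2 and 3 and 102, 144 and 127 CPM in Na2SeO3 replicates 1, 2 and 3. The lowest control sample was thus above the highest Na2SeO3 sample by a wide margin. The group means of 638 ± 131 and 124 ± 21.0 CPM (SD, n = 3) differed 5.13-fold, and the log2FC was -2.30 ± 0.11 (SE, edgeR adjusted p = 6.21e-20).

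ENSRNOG00000054990 fell next, from 328, 355 and 348 CPM in the control samples to 135, 135 and 115 CPM in the Na2SeO3 samples. Both groups were narrow and lay far apart. The control mean of 344 ± 13.6 CPM was 2.68 times the Na2SeO3 mean of 128 ± 11.7 CPM (SD, n = 3), with a log2FC of -1.37 ± 0.09 (SE, edgeR adjusted p = 4.81e-15).

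The other 2 called lncRNAs were less abundant and lay close to the fold threshold. One had 97.6, 108 and 81.3 CPM in the control samples and 31.7, 55.3 and 35.7 CPM in the Na2SeO3 samples, with a log2FC of -1.16 ± 0.19 (edgeR adjusted p = 4.48e-06). Na2SeO3 replicate 2 was the highest of its group, and without Na2SeO3 replicate 1 the log2FC was -0.99, inside the threshold. The other had 77.7, 79.1 and 93.3 CPM in the control samples and 35.4, 38.8 and 40.7 CPM in the Na2SeO3 samples, with a log2FC of -1.08 ± 0.18 (edgeR adjusted p = 6.64e-06). Without control replicate 3 its log2FC was -0.96. For both, the groups did not overlap.

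Relative to the other lncRNAs, a further 28 passed the adjusted p as lower but not the fold threshold. The groups of 26 of them did not overlap, against 48.9% of all lncRNAs tested. Since the 28 were chosen by a test on the same samples, that count is a description only. The widest of these changes was a log2FC of -0.92 ± 0.16, from 119, 100 and 110 CPM in the control samples to 53.4, 56.3 and 58.8 CPM in the Na2SeO3 samples. Small differences were resolved where counts were high. The sixth most abundant of the 90 had 716, 701 and 725 CPM in the control samples and 546, 545 and 576 CPM in the Na2SeO3 samples, a log2FC of -0.31 ± 0.06 (edgeR adjusted p = 2.16e-05). The seventh had 641, 664 and 644 CPM against 497, 490 and 481 CPM, a log2FC of -0.36 ± 0.06 (edgeR adjusted p = 1.98e-06). In both, replicates of a group lay closer together than the groups did, while with the mRNA scaling the log2FC values were -0.0067 and -0.053 and neither passed.

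None of the 90 was called higher. Of the 11 that passed the adjusted p as higher, 2 had the largest log2FC. ENSRNOG00000056112 had 49.9, 44.2 and 53.0 CPM in the control samples and 75.6, 75.4 and 94.5 CPM in the Na2SeO3 samples, means of 49.0 ± 4.44 and 81.8 ± 11.0 CPM (SD, n = 3). Its log2FC was 0.78 ± 0.18 with a 95% interval from 0.42 to 1.14 (edgeR adjusted p = 0.00041), so the interval reached past the threshold of 1. It passed the count minimum narrowly, with 52 counts in control replicate 2.

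ENSRNOG00000055851 had 76.2, 60.4 and 59.0 CPM in the control samples and 81.9, 103 and 108 CPM in the Na2SeO3 samples, a log2FC of 0.63 ± 0.16 (edgeR adjusted p = 0.0017). Its groups did not overlap, although Na2SeO3 replicate 1 was close to control replicate 1. Among the abundant members, the fifth had the clearest higher level, with 637, 652 and 658 CPM in the control samples and 801, 848 and 832 CPM in the Na2SeO3 samples. That is a log2FC of 0.40 ± 0.05 (edgeR adjusted p = 1.22e-07). The fourth, at 1300, 1307 and 1182 CPM against 1349, 1419 and 1345 CPM, differed by a log2FC of 0.17 ± 0.05 (edgeR adjusted p = 0.0043). Groups did not overlap for 8 of the 11, against 48.9% of all lncRNAs tested. The 11 were chosen by a test on the same samples, so this count is a description only.

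**Figure D4:**
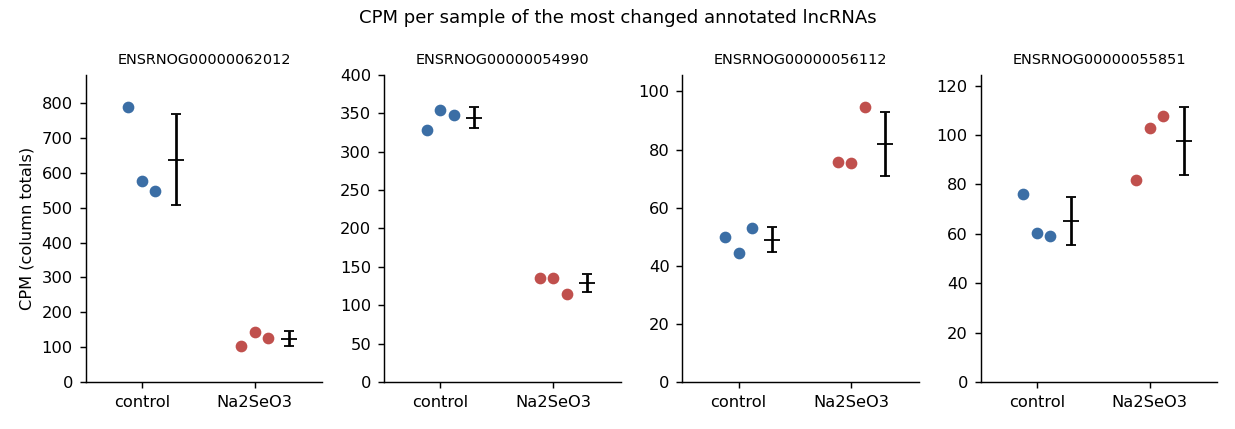
CPM in each sample (replicates 1 to 3 from left to right) of the 2 annotated lncRNAs with the largest fall and of the 2 with the largest positive log2 fold change that passed the adjusted p, each on its own axis from 0, with mean ± SD. In each panel the control (blue) and Na2SeO3 (red) points do not overlap.

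Stability was read from the 95% interval of the log2FC rather than from a p-value, since a p that misses the threshold does not show equal levels. For 3 of the 90 the interval lay within -0.2 to 0.2, for 30 within -0.5 to 0.5 and for 79 within -1 to 1. The 3 narrowest were those of the 3 most abundant lncRNAs, although their replicates spread well beyond counting noise. The SE is moderated across lncRNAs, so it can lie below the replicate spread of a single one. A narrow interval here thus need not mean close replicates. ENSRNOG00000062127 had a log2FC of -0.022 (interval -0.061 to 0.016), ENSRNOG00000062155 one of -0.080 (-0.13 to -0.026) and ENSRNOG00000062158 one of 0.070 (-0.023 to 0.16). ENSRNOG00000062155 passed the adjusted p (edgeR, 0.015) with overlapping groups, and the call rested on single samples. Its edgeR adjusted p was 0.224 without control replicate 3 (log2FC -0.046), 0.298 without Na2SeO3 replicate 2 (-0.039) and 0.182 without Na2SeO3 replicate 3 (-0.051), and it was 0.101 with DESeq2. ENSRNOG00000062158, which did not pass (edgeR adjusted p = 0.238), had a log2FC of 0.18 without Na2SeO3 replicate 1 (edgeR adjusted p = 2.38e-09). That value lay above the upper end of its interval, so its place within -0.2 to 0.2 depended on that sample. The log2FC values of these 3 are relative to the other lncRNAs. With the scaling of the mRNA table they were 0.28, 0.22 and 0.38, and each passed as higher (edgeR adjusted p = 2.44e-10, 5.12e-07 and 4.89e-08). ENSRNOG00000062127 passed as lower with total-count scaling (log2FC -0.079, edgeR adjusted p = 7.23e-05) and upper-quartile factors (-0.049, 0.025), but not with RLE factors (-0.023, 0.325).

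Among lncRNAs of moderate abundance, ENSRNOG00000053948 and ENSRNOG00000052491 were the most stable with the lncRNA factors. ENSRNOG00000053948 had 231, 187 and 198 CPM in the control samples and 214, 182 and 183 CPM in the Na2SeO3 samples, with a log2FC of -0.041 and an interval from -0.25 to 0.17. ENSRNOG00000052491 had 178, 166 and 189 CPM in the control samples and 209, 166 and 137 CPM in the Na2SeO3 samples, with a log2FC of -0.010 and an interval from -0.25 to 0.23. The Na2SeO3 samples of the latter spread on both sides of the control samples, so its stability is that of the group means and not of single animals. With the mRNA scaling both lncRNAs passed as higher, at log2FC values of 0.26 and 0.29 (edgeR adjusted p = 0.032 and 0.040). At the other end, 20 of the 40 lncRNAs whose interval held 0 had one that reached past 0.5 in size, and for these neither a change nor its absence was resolved.

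Spread between replicates exceeded counting noise for many of the 90. The coefficient of variation was at least 1.5 times that of counting alone for 45 lncRNAs in the control group and for 35 in the Na2SeO3 group. The value for counting was 1 over the square root of the count. A coefficient from 3 samples varies around such a value, so some of these would pass without added spread. For the 3 most abundant it was 4.08 to 12.6 times that of counting in the control samples and 5.41 to 27.9 times in the Na2SeO3 samples. The median coefficient of variation of CPM was 10.5% among control samples and 9.09% among Na2SeO3 samples, while the values expected from counting had medians of 8.61% and 8.14%. For abundance ranks 1 to 30 the medians were 7.85% and 6.32%, against 4.98% and 4.72% from counting. No lncRNA exceeded 30% in the control group and 3 did in the Na2SeO3 group. The widest, at 52.8%, had 32.2 CPM in Na2SeO3 replicate 1 against 113 and 96.1 CPM in Na2SeO3 replicates 2 and 3, and 47.7, 61.2 and 62.6 CPM in the control samples. Na2SeO3 replicate 1 thus lay below every control sample and the others above, and the group difference did not pass (log2FC 0.54 ± 0.25, edgeR adjusted p = 0.078), although it did with the mRNA scaling (log2FC 0.85, edgeR adjusted p = 0.0035).

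The direction of the 90 depended on what they were scaled to. With the library sizes and TMM factors of the mRNA table, the median log2FC of all lncRNAs tested moved up by 0.30, to 0.28, and that of the 90 from -0.23 to 0.076, above 0. The gap between the 90 and all lncRNAs was -0.20 with the lncRNA factors and -0.21 with the mRNA scaling. Under the mRNA scaling 23 of the 90 passed the adjusted p as higher and 10 as lower, against 36% and 10.7% of all lncRNAs tested, and the calls past the fold threshold were 1 higher and 2 lower, against 18.2% of all lncRNAs in either direction.

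The annotated lncRNAs that kept their side under both scalings were 11 higher and 10 lower. One, ENSRNOG00000062155, which did not pass as lower when any one of 3 samples was left out, passed as lower with the lncRNA factors and as higher with the mRNA scaling. The remaining 21 of the 32 lower no longer passed, while 11 that had not passed became higher. ENSRNOG00000062012 and ENSRNOG00000054990 stayed called under the mRNA scaling, at log2FC values of -1.99 and -1.06. The 2 lncRNAs with the next largest falls came to -0.85 and -0.77, and ENSRNOG00000056112 came to 1.08 and was then called.

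**Figure D5:**
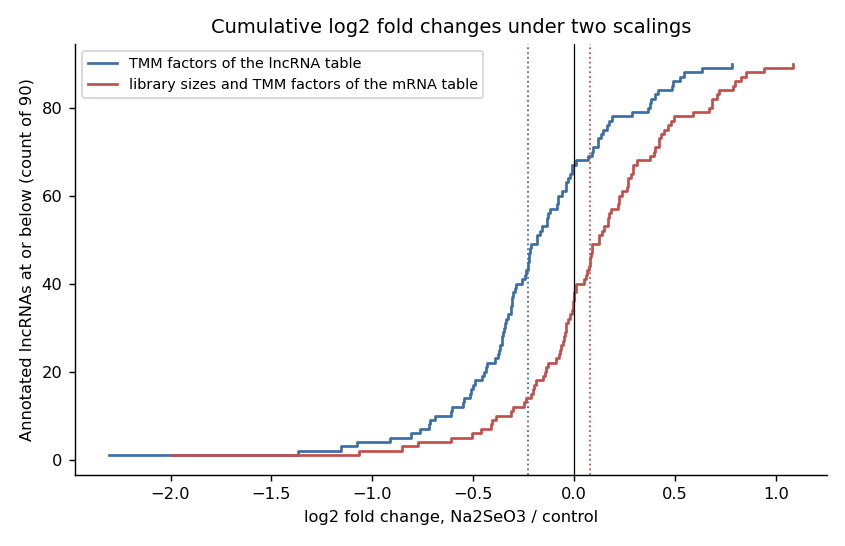
Number of the 90 annotated lncRNAs at or below each log2 fold change with the TMM factors of the lncRNA table (blue) and with the library sizes and TMM factors of the mRNA table (red), dotted lines marking the medians of -0.23 and 0.076. The red curve is the blue one moved to the right by a nearly constant step.

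Annotated rows lay on both sides of the count minimum. The 3 just inside had lowest counts of 50, 50 and 52 and log2FC values of -0.50, -0.23 and 0.78. The 3 just outside had lowest counts of 49, 49 and 48 and log2FC values of -0.37, -0.58 and 0.18. A further group of annotated rows reached 50 counts in each sample of 1 group only. The 14 that did so in the control group had log2FC values from -2.47 to -0.37, and the 16 that did so in the Na2SeO3 group had values from -0.22 to 8.98. Such rows had to differ or lie near the minimum, and 50 counts stood for a higher CPM in the control samples, so their directions are a description only. The row with 8.98 had at most 15 counts in any control sample and at least 5362 in each Na2SeO3 sample. The labels gave no sex for the rats, and whether the groups differed in sex was not tested, for this row or for the 90. These rows are not among the 90 and were looked up after the values were seen.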

How the data were processed

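Total RNA of lens capsules from 6 rats, 3 per group, was sequenced. Per the study's methods, the authors trimmed reads with Cutadapt and Fqtrim, assessed them with FastQC and aligned them with HISAT2 to an Ensembl rat reference. The build, counting tool, strand setting and lncRNA assembler are not given in the sources used here, so reads shared by overlapping loci or by close gene copies cannot be separated. The authors deposited raw counts with 1 column per sample, matched to samples by title. The lncRNA counts were analysed, the mRNA counts gave a scaling and a denominator, and the circRNA table was not used here.

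Rows were filtered with filterByExpr, scaled with TMM and tested with glmQLFit and glmQLFTest in edgeR 4.0.16 (R 4.3.3), without covariates. P-values were adjusted over all 5057 lncRNAs tested. All 90 members passed the filter. CPM used column totals, while log2FC used TMM factors. The SE came from the fitted weights and the moderated quasi-dispersion, and 95% intervals from the matching t distribution. For sums and ratios per sample, 2-sided exact permutation tests were used (scipy 1.17.1). Alternatives were RLE, upper-quartile, total-count and mRNA scaling, no filter, DESeq2 1.42.0, a replicate block, other count minimums and leaving out each sample.

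Members and lists were chosen with earlier results of these data known. The naming rule allowed the 10 largest rises and falls among calls, the 8 most stable and 8 most abundant members, and lists of symbols. Since 0 of the 90 identifiers matched the RefSeq gene table, the lists and markers were not used and only 2 identifiers were printed for each direction of change, those with the largest falls among the called lncRNAs and those with the largest positive log2FC that passed the adjusted p, the latter rule being set after the values were seen. A count of 3, the floor of detection, stood for 1.55 to 2.55 CPM.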

Additional observations from a re-analysis of the deposited data

How the results depend on the processing

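The count of 4 called annotated lncRNAs was also obtained, with the same 4, under RLE, upper-quartile and total-count scaling, no filter, DESeq2 and the replicate block, and without the 3 most abundant members in the table, an alternative added after the data were seen. It was 3 with the mRNA scaling and 3 to 4 in the fits that left out one sample. It was 43 without the fold threshold, 11 among the 168 annotated rows with at least 20 counts in each sample and 2 among the 45 with at least 100. For the last 2 sets the share of other lncRNAs with the same minimum was not counted. The median log2FC lay between -0.28 and -0.20 under the other alternatives and between -0.27 and -0.16 with one sample left out, and it was 0.076 with the mRNA scaling. The share of lncRNA counts (difference -1.05 to -0.911 percentage points with one sample left out) and the counts per 1000000 mRNA counts (5293 to 5935) kept their direction in each alternative run, and p under 0.05 was out of reach for both. Without the 3 most abundant members, also added later, the differences were -0.216 points and 308 counts.

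Under the mRNA scaling 4 near-0 log2FC values changed sign, to 0.28 (ENSRNOG00000062127), 0.22 (ENSRNOG00000062155), 0.26 (ENSRNOG00000053948) and 0.29 (ENSRNOG00000052491). All 4 then passed the adjusted p as higher. ENSRNOG00000052491 was 0.0015 without a filter on low counts. With one sample left out, ENSRNOG00000062127 lay between -0.044 and 0.011, ENSRNOG00000062155 between -0.12 and -0.039, ENSRNOG00000062158 between 0.022 and 0.18, ENSRNOG00000053948 between -0.12 and 0.041 and ENSRNOG00000052491 between -0.17 and 0.13. Under the mRNA scaling the median log2FC of all lncRNAs tested also moved up, by 0.30, so the values above moved with the table. For the sign changes without the filter or with one sample left out, the cause was not tested. No shared deviation of same-numbered samples was seen. Their deviations from the group means correlated between -0.0232 and 0.0144. With 3 samples per group this cannot exclude a paired design, and the paper's discussion speaks of paired model and control animals. With the replicate block, 46 of the 90 passed the adjusted p, 42 of them among the 43, and ENSRNOG00000062158 passed (edgeR adjusted p = 0.039), as it did without a filter on low counts (0.016). With DESeq2 35 of the 90 passed (9 higher, 26 lower), and with one sample left out 34 to 41 did (8 to 13 higher, 23 to 28 lower). The shares of all lncRNAs that passed the adjusted p in these alternative fits were not counted.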
